A study of Drosophila melanogaster with 3 samples.

Results

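The EGF receptor pathway genes described here are 10 Drosophila melanogaster genes chosen for their known parts in EGF receptor signalling, out of 18164 annotated genes on the main chromosome arms, and the peaks described are those of Grain with a summit in the body of such a gene or within 1000 bp upstream of its 5' end. The genes were spi, Krn, vn, rho, ru, S, Egfr, aos, pnt and aop. Grain, the product of grn, is a zinc-finger transcription factor of the GATA family. Its binding was mapped by ChIP-seq, in 3 biological replicates made from whole embryos aged 0 to 24 h, males and females pooled, from a transgenic line that stably makes Grain with GFP fused to its C-terminus, with an antibody against GFP. All 3 replicates carry the tagged transgene and are of this same kind, so there was no second condition, and the comparisons are between genes and between peaks. A whole embryo mixes all tissues and stages of that day, so strong occupancy in few cells and weak occupancy in many cells cannot be told apart.

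Each replicate was deposited as a list of 30000 ranked peaks, and a further 30000 were listed for the 3 replicates pooled. The authors' list set by a threshold on the irreproducible discovery rate, a measure of agreement between ranked lists, holds 6580 of these, called optimal here. A place in it does not mean that a peak was strong in each replicate. Of the 6580, 27 were outside the 6580 strongest peaks of every replicate. Ranks count from 1, the peak with the highest signal, and the signal is the authors' own value on a scale set separately in each list. The lists hold no reads, so depth is unknown. Replicates are compared through the 6580 strongest peaks of each.

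In flies the EGF receptor is switched on mostly by ligands made as membrane-bound precursors. The chaperone Star carries a precursor out of the endoplasmic reticulum, a Rhomboid protease cuts it, and the freed ligand binds the receptor and starts the Ras and MAP kinase cascade. In the nucleus the cascade acts through a pair of ETS factors, the activator Pointed and the repressor Yan, while Argos, made in response to signalling, mops up the ligand. In embryos the pathway is known for patterning the ventral ectoderm and for its action in the tracheal placodes and around the sense organ precursors.

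Grain peaks lay at 9 of the 10 genes and by count were most numerous at the genes of both nuclear effectors, of which pnt, at 55937 bp, is the longest of the 10. In all, 36 optimal summits fell at the 10 genes, 11 of them at aop, which encodes Yan, and 9 at pnt. Egfr held 4, S held 3, spi, vn, ru and aos held 2 each, Krn held 1, and rho, whose product is the protease that commonly limits the pathway, held none. An optimal summit lay at 25.5% of the 13945 protein-coding genes, and at 47.5% of the 3654 that were at least as long as Krn, with 4719 bp the shortest of the 9 genes. That length is only a lower limit, and most of the 10 genes are far longer. The part of gene length in the 9 of 10 was not tested. The 10 genes and their upstream parts cover 236 kb and held 1.53 optimal summits per 10 kb, against 0.575 per 10 kb over all protein-coding genes. Gene by gene the density was 4.73 at aop, 1.92 at spi, 1.75 at Krn, 1.58 at pnt and 1.4 at aos. It was 1.12 at ru, 1.04 at Egfr, 1.03 at S, 0.6 at vn and 0 at rho. By length aop stood highest among the 10, and each of them but rho lay above the 0.575 of all protein-coding genes. Without the 11 summits of aop, 25 remain. These genes were chosen with results of these data known, so the counts describe them and were not tested.

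**Figure D1:**
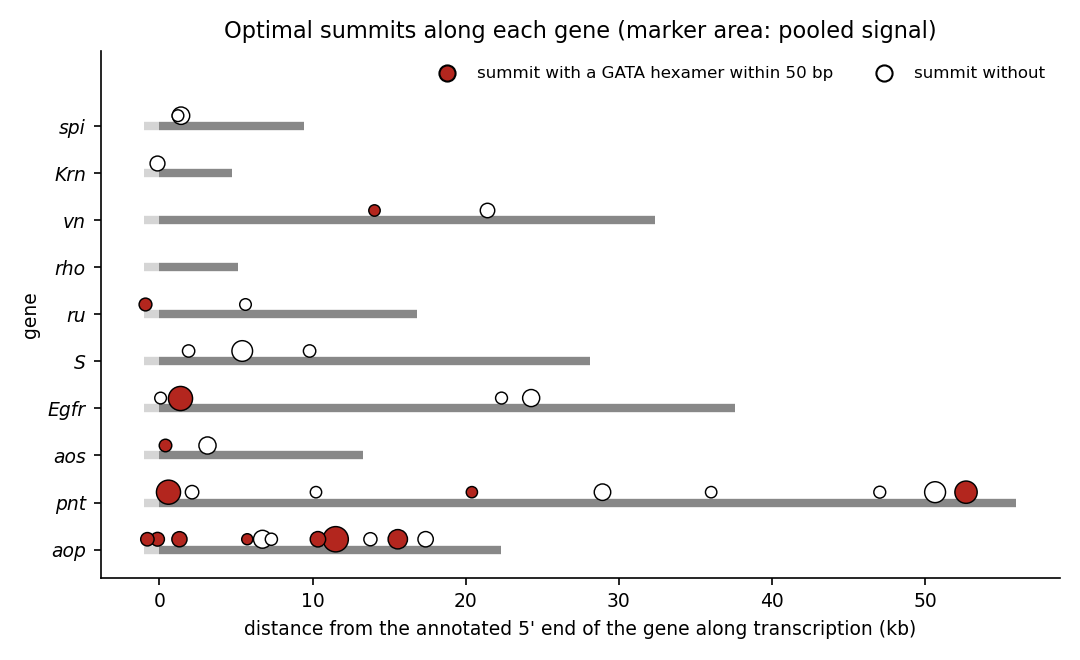
Position of the 36 optimal summits along the 10 genes. The x axis is the distance in kb from the annotated 5' end along the direction of transcription, dark bars are gene bodies, light bars the 1000 bp upstream, and the area of a marker is the pooled signal. Red markers are the 14 summits with a GATA hexamer within 50 bp, 7 of them at aop, and rho has no marker.

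The sequence under these summits varied, with 14 of 36 holding the hexamer bound by GATA factors, searched on either strand in the form AGATAA, the form AGATAG, the form TGATAA or the form TGATAG, within 50 bp of the summit. To show the letters behind that count, the forward strand of dm6 from 50 bp left to 50 bp right of the summit, read from RefSeq's release 6 genome, follows for 9 intronic or upstream peaks, with each hexamer, in either orientation, in capitals. The windows of the strongest peak of aop and of ru are shown by the rule for strongest peaks with a hexamer. The other 7 were chosen after their values were seen. The first 6 hold a hexamer: 3 peaks in introns of aop (pooled ranks 225, 950 and 2328), the peak upstream of ru (rank 4214), an intronic peak of pnt (rank 468) and an intronic peak of vn (rank 5878).
aop, chr2L:2167197-2167297: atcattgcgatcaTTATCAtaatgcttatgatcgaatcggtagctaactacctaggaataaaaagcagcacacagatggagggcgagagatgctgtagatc
aop, chr2L:2163142-2163242: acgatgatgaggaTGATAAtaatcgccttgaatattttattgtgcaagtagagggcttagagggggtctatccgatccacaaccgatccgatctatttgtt
aop, chr2L:2168356-2168456: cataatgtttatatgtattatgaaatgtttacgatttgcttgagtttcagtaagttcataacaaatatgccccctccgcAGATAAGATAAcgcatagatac
ru, chr3L:1369636-1369736: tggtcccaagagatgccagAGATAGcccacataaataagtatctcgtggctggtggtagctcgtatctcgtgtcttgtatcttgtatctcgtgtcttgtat
pnt, chr3R:23293452-23293552: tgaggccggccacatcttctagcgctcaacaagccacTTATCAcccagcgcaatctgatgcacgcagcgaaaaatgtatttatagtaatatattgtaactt
vn, chr3L:5831611-5831711: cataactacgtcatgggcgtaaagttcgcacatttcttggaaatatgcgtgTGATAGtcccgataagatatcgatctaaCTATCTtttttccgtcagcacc
The remaining 3 hold none and include some of the strongest peaks at these genes: the peak at the internal start of pnt (rank 647), the strongest of S (rank 698) and the strongest of spi (rank 1497).
pnt, chr3R:23295472-23295572: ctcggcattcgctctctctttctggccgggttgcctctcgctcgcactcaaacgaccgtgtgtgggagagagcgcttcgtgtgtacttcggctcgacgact
S, chr2L:1072359-1072459: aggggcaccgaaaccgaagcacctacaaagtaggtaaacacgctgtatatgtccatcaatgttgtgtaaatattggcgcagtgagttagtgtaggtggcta
spi, chr2L:19575858-19575958: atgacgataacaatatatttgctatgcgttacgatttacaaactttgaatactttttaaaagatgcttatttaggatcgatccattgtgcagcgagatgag

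Lower case is the rest of the window. At the third aop window the pair of AGATAA copies overlaps, and the window of vn holds TGATAG and, on the other strand, AGATAG. Across the 14 summits the nearest hexamer was centred a median of 10.5 bp from the summit, with a range of 0 to 44 bp, and 9 of the 14 lay within 25 bp. At least 2 copies lay at 4 summits, a pair at aop and 1 each at pnt and vn. AGATAA was found at 6 summits, AGATAG at 5, TGATAA at 4 and TGATAG at 2, where a summit with several copies can count for more than 1.

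By count the ligand genes held few peaks, mostly middling in rank. Per 10 kb, spi (1.92) and Krn (1.75, from 1 summit) came next after aop (4.73) among the 10 genes. The gene spi (FBgn0005672; 2L, 19567900 to 19577315, minus strand) encodes Spitz, the main TGF-alpha-like ligand of the embryo. Its 2 optimal summits lay 200 bp apart in an intron, on overlapping intervals, 321 and 521 bp upstream of an internal transcript start. The stronger (19575605 to 19576025; signal 279; pooled rank 1497) ranked 1824, 562 and 1430 in replicates 1, 2 and 3, and the weaker ranked 5429 in the pooled list. In replicate 3 both overlapped the same peak best. Neither summit had the hexamer. Krn (FBgn0052179; 3L, 17649562 to 17654280, minus strand), which encodes Keren, another cleaved ligand, had 1 optimal summit, 144 bp upstream of its 5' end (signal 203; pooled rank 2626; ranks 3142, 4310 and 2097 in the replicates). That 5' end is annotated at the same base as the start of Ndfip, so the peak is as near to the start of that gene as to Krn. The gene vn (FBgn0003984; 3L, 5813338 to 5845664, minus strand) encodes Vein, a secreted ligand that needs no cleavage. Both of its summits lay deep in introns, 21383 and 14003 bp from the 5' end, at pooled ranks 2888 and 5878. The nearest TSS to the first belongs to mad2. Its ranks of 3071, 3108 and 3575 in the replicates had a mean of 3251 ± 281 (SD, n = 3).

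Of the 3 genes for ligand processing, S was the one with a strong peak, and rho stood without any optimal peak. S (FBgn0003310; 2L, 1049674 to 1077815, minus strand), the gene of Star, had 3 intronic summits, and the strongest (1072184 to 1072527; signal 393) stood at pooled rank 698 and at 567, 1177 and 746 in the replicates (830 ± 314, mean and SD, n = 3). The others ranked 4681 and 4784, and none of the 3 had the hexamer. The gene ru (FBgn0003295; 3L, 1370628 to 1387437, plus strand) encodes Roughoid, a Rhomboid-type protease known from the eye. Its summits, 942 bp upstream and 5577 bp downstream of its 5' end, ranked 4214 and 5608 in the pooled list, and the first held the hexamer. Both also lie in the body of Ptp61F, and the nearest TSS to the second is that of a tRNA gene.

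At rho (FBgn0004635; 3L, 1463811 to 1468944, plus strand) the pooled list held 5 summits, all below the optimal set, and none of the 5 had the hexamer. The strongest, 52 bp downstream of the 5' end, ranked 14629 with a signal of 53.5, against 110 for the weakest optimal peak. The best rank of any rho peak was 11887 in replicate 1, 8965 in replicate 2 and 19092 in replicate 3, so that no replicate placed rho among its 6580 strongest. The peak near the 5' end was listed in all 3, at rank 17284, 19873 and 19092. The nearest optimal summits outside lay 15493 bp upstream of the 5' end, in Ptp61F (rank 653), and 47661 bp beyond the 3' end, in the bodies of Psa and cue (rank 2035). At this threshold a peak was not detected at rho, which does not show that Grain was absent there.

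The receptor gene Egfr (FBgn0003731; 2R, 21522420 to 21559977, plus strand) has 2 annotated starts, and an optimal summit lay within 100 bp of each. The strongest of its 4 peaks was between them, in an intron 1310 bp from the first start (21523481 to 21523939; signal 536; pooled rank 290). It ranked 451, 462 and 179 in replicates 1, 2 and 3, a mean of 364 ± 160 (SD, n = 3), and was the only summit of the gene with the hexamer, as AGATAG 11 bp from the summit. The peak at the second start had its summit 47 bp from it, in the 5' UTR (signal 269; rank 1617; replicate ranks 1015, 1952 and 2663). The peak at the first start, 74 bp from it, was weaker (rank 5517) and fell to rank 9926 in replicate 2, against 4116 and 5542 in replicates 1 and 3. The last summit lay in an intron at rank 5296. At least 4 optimal summits were held by 389 protein-coding genes, or 2.79%.

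The gene aos (FBgn0004569; 3L, 16470386 to 16483650, minus strand) encodes Argos, the secreted antagonist that binds Spitz and that is itself a known transcriptional target of the pathway. Its stronger summit lay 3111 bp into the gene, in an intron (signal 271; pooled rank 1601), at ranks 1895, 1371 and 1375 in the replicates. The other lay in the 5' UTR, 348 bp from the TSS (signal 145; rank 4499), and held the hexamer as AGATAG. Both summits also lie in the body of CG33158. Both peaks were among the 6580 strongest of all 3 replicates.

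The gene pnt (FBgn0003118; 3R, 23290231 to 23346167, minus strand) encodes Pointed, the ETS activator, as several isoforms from separate promoters, and 3 of its 9 peaks ranked within the first 1000 of the optimal list. The annotation gives it 3 starts. The strongest peak (23345397 to 23345760; signal 536; pooled rank 289) had its summit in the 5' UTR, 590 bp downstream of the most distal start. It ranked 498, 452 and 160 in the replicates and held 2 hexamers. The next pair lay around the start nearest to the 3' end: a summit 284 bp upstream of that start without the hexamer (signal 403; rank 647; replicate ranks 682, 607 and 808) and a summit 1736 bp downstream of it with the hexamer (signal 458; rank 468; replicate ranks 593, 646 and 360). These 3 peaks had mean ranks of 370 ± 183, 699 ± 102 and 533 ± 152 in that order (SD, n = 3), and the first ranked ahead of the last of them in 3 of 3 replicates although their SDs overlap. The middle start had no optimal summit within 1000 bp, the nearest being 2925 bp away at rank 1834. The other 5 summits ranked between 3596 and 6074 and lay in introns, and 3 of the 9 summits held the hexamer.

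The gene aop (FBgn0000097; 2L, 2156484 to 2178754, minus strand), which encodes the ETS repressor Yan, held the most summits, with 11 spread over 18.2 kb and a median gap of 1609 bp between neighbours, or 4.73 per 10 kb. At least 11 optimal summits were held by 25 protein-coding genes (0.179%), and at least 9, the count of pnt, by 48. The other genes with exactly 11 numbered 6, of which the longest were kirre (394149 bp), osp (90145 bp) and px (67769 bp). The lengths of the rest are not given here, so aop, 22271 bp long, is not ranked by length among them. The strongest peak of aop (2166947 to 2167438; signal 589; pooled rank 225) lay in an intron 11507 bp from the distal 5' end and ranked 350, 455 and 120 in replicates 1, 2 and 3. The next (2163020 to 2163395; signal 345; rank 950; replicate ranks 1655, 589 and 876) lay in an intron as well. Both hold the hexamer TGATAA, as in the windows printed above. Upstream of the distal start, summits at 126 and 788 bp (ranks 3334 and 3643) each held AGATAA, 8 bp from the summit. Near the internal start, a summit in the 5' UTR 152 bp downstream of it had no hexamer (rank 2366; replicate ranks 1764, 6695 and 2732).

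Of the 11 aop peaks, 8 were among the 6580 strongest of all 3 replicates. The intronic peak at pooled rank 3872 overlapped no peak of replicate 2 at all, although it ranked 4180 and 2226 in replicates 1 and 3, and the nearest summit of replicate 2 was 580 bp away. The weakest, at rank 6320, passed only in replicate 2 and yet held 2 hexamers, the nearer at 0 bp from the summit. Of the 11 summits 7 held the hexamer, against 7 of the 25 at the other genes (28%) and 46.2% of all optimal summits.

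**Figure D2:**
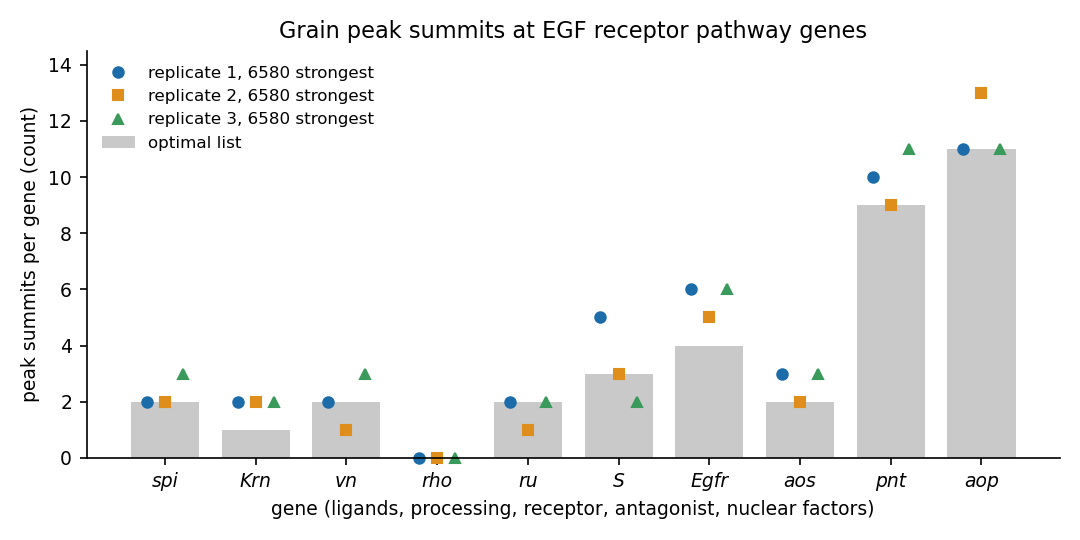
Number of peak summits at each gene. Grey bars are the optimal list and points the 6580 strongest peaks of each replicate. In every replicate aop and pnt lie highest, at 11 to 13 and 9 to 11 summits, and rho lies at 0.

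The replicates gave much the same order of genes. Their 6580 strongest peaks placed 43, 38 and 43 summits at the 10 genes in replicates 1, 2 and 3, a mean of 41.3 ± 2.89 (SD, n = 3), and each replicate placed a summit at the same 9 genes. The share of protein-coding genes with a summit of that kind was 26.0% in replicate 1, 28.3% in replicate 2 and 24.7% in replicate 3. The mean count was 11.7 ± 1.15 at aop and 10 ± 1 at pnt, ranges that meet at 11, then 5.67 ± 0.577 at Egfr and 3.33 ± 1.53 at S (SD, n = 3). The counts at spi, Krn, vn, ru and aos lay between 1 and 3 in every replicate and cannot be ordered beyond their spread. Some optimal summits were not among the 6580 strongest of every replicate. Of the 9 summits of pnt, 5 were among the strongest of all 3 replicates. The same held for 1 of 3 at S, 1 of 2 at vn and 1 of 2 at ru. Asking this of the remaining replicates only, pnt held 7 without replicate 1 and 5 without replicate 2 or 3. On the same count S held 1 without replicate 1, and ru held 1 without replicate 1 or 3. The count at vn was 1 without any of the 3 replicates in turn. Leaving out a replicate can only keep or raise such a count, so it does not show which replicate a gene's summits rest on.

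Peak by peak, 24 of the 36 optimal peaks (66.7%, 95% Wilson interval 50.3 to 79.8) were among the 6580 strongest of all 3 replicates, against 67.8% of all optimal peaks. Another 8 passed in 2 replicates and 4 in 1. Replicate 1 held 32 of the 36, replicate 2 held 28 and replicate 3 held 32. The optimal list was drawn from these same replicates, so a high share is partly set by that choice. The interval above and those below treat the peaks as independent, although many share a gene, so they may be too narrow. The median rank of the 36 peaks was 3465 in the pooled list, near the 3290 of all optimal peaks, and 7 of the 36 (19.4%) ranked 1000 or better, against 15.2% of all. In replicate 2 the median rank of the member peaks was 4235, against 3082 for all optimal peaks. In replicates 1 and 3 it was 3106 and 2802, against 3043 and 2994 for all. The summit of a member peak lay a median of 23.5, 25 and 15.5 bp from the nearest summit of replicates 1, 2 and 3, against 10, 24 and 13 bp for all optimal peaks.

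**Figure D3:**
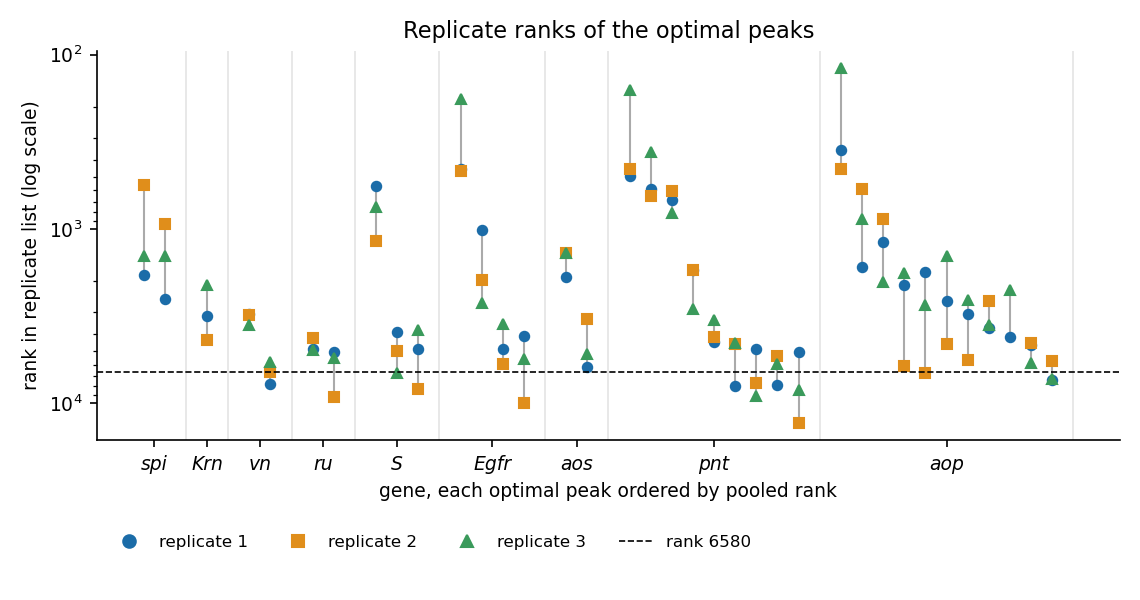
Rank of each optimal peak in the 3 replicates, on a log axis with the strongest at the top, grouped by gene and ordered by pooled rank within a gene. The dashed line is rank 6580. The strongest peaks of aop, pnt and Egfr lie between ranks 120 and 498 in all replicates, and the 24 peaks with all 3 points on or above the line are those shared by all replicates. In 1 aop peak the point of replicate 2 is missing.

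The member peaks lay far from transcription start sites (TSS) more often than the list as a whole. Of the 36 summits, 27 lay in introns of their gene, 5 in a 5' UTR and 4 upstream, and none in a coding exon or a 3' UTR. Summits within 500 bp of a TSS numbered 8 (22.2%, 95% Wilson interval 11.7 to 38.1), against 39.7% of all optimal peaks, and 24 (66.7%, interval 50.3 to 79.8) lay over 1000 bp from any TSS, against 48.8%. Among the 6580 strongest peaks of the replicates, the share within 500 bp of a TSS was 30.2%, 21.1% and 27.9% at these genes and 40.6%, 42% and 38.7% over all peaks, lower at these genes in 3 of 3 replicates (exact paired permutation test, two-sided, p = 0.25, which no set of 3 pairs can go below). The rule counts a summit anywhere in a gene body, and 9 of these 10 genes are at least 5134 bp long. The part of gene length in this difference was not tested.

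The GATA hexamer lay at 38.9% of the 36 summits (95% Wilson interval 24.8 to 55.1) and at 4 of 36 flanks, windows as wide placed 500 bp away on the right (11.1%, interval 4.41 to 25.3). Over all optimal peaks the shares were 46.2% and 18.5%. The interval at these genes holds the share of all peaks. In the replicates' own strongest peaks at these genes, the hexamer was at 37.2%, 34.2% and 32.6% of summits and at 16.3%, 23.7% and 16.3% of flanks, a difference of 15.9 ± 5.21 percentage points (SD, n = 3) with the summit higher in 3 of 3 replicates. Over all peaks of the replicates the share at summits was 44.9%, 43.6% and 44.1%, so that the genes lay below it in 3 of 3, with a mean difference of -9.55 ± 1.94 percentage points (SD, n = 3). The exact permutation test, two-sided, gave p = 0.25 for each of these paired comparisons, and 3 replicates cannot give less. The replicates list largely the same sites, so their small spread does not cover the choice of 10 genes.

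**Figure D4:**
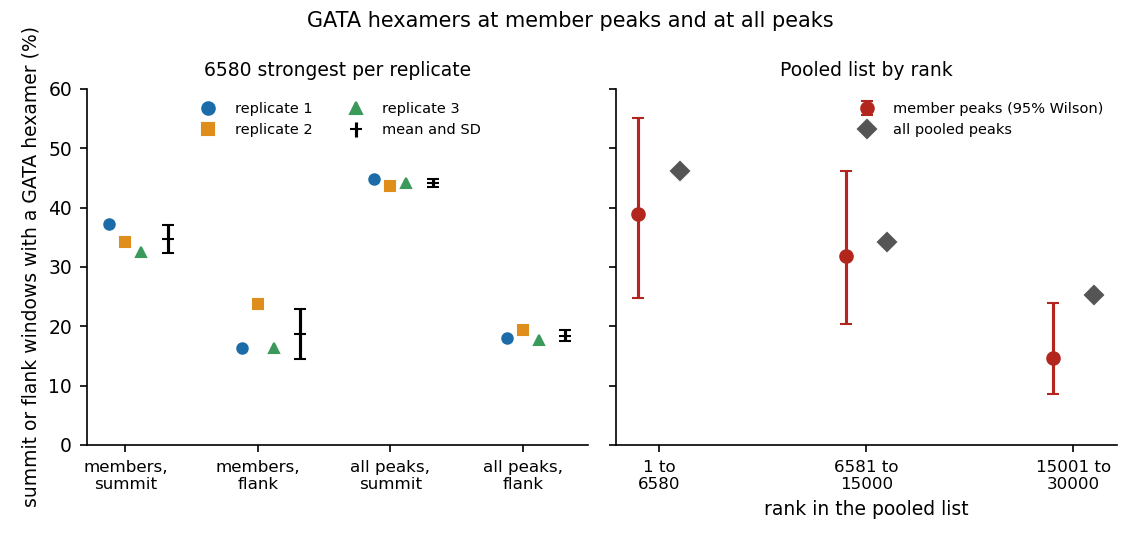
Share of windows, 50 bp either side of a point, with a GATA hexamer, in percent. Left, the 6580 strongest peaks of each replicate, at the 10 genes and over all peaks, at summits and 500 bp to the right, with mean and SD over 3 replicates; right, the pooled list by rank, at the 10 genes (bars are 95% Wilson intervals) and over all peaks. At the genes the share is 38.9% in ranks 1 to 6580 and 14.6% in ranks 15001 to 30000.

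Below the optimal set the pooled list held 129 further summits at these genes, and each of the 10 genes had some. A pooled summit of any rank lay at all 10, and at 47.4% of protein-coding genes. There were 47 at ranks 6581 to 15000, of which 15 held the hexamer (31.9%, 95% Wilson interval 20.4 to 46.2), against 34.2% of all pooled peaks of those ranks. There were 82 at ranks 15001 to 30000, of which 12 held it (14.6%, interval 8.57 to 23.9), against 25.2% of all. The weak summits were most numerous at pnt (35) and Egfr (24), followed by aop (14). The genes held 0.547%, 0.558% and 0.547% of the peaks of the 3 rank bands.

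Of 4 other sequence motifs, GAGAG was the one found at these summits. CCGGAA, the core recognised by ETS factors such as the products of pnt and aop, was at none of the 36 summits, which allows a share of up to 8.33% by the limit of 3 counts (95% Wilson upper bound 9.64%), and at 2.05% of all optimal summits. It lay in 2 flank windows (5.56%), against 2.67% of all. TATCGATA, an element of housekeeping promoters, was at 0 of 36 summits and at 1.34% of all, and CAGGTA, part of the site of the early activator Zelda, at 0 of 36 and at 2.71% of all. GAGAG, the core of the GAGA element, was at 10 of 36 (27.8%, 95% Wilson interval 15.8 to 44), against 15% of all optimal summits, and in 16.7% of flanks, against 12.3%. The strongest peak each of aop, pnt and Egfr was among these 10. The intervals cover counting error only, and motifs were matched on both strands.

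Of 31 further genes of the pathway, 15 had an optimal summit (48.4%), against 9 of the 10 genes above. The share was 25.5% of all protein-coding genes and 47.5% of those at least as long as Krn, though some of the 31 are shorter. The part of gene length in these shares, and in those by role below, was not tested. The 31 genes held 44 summits in all, 13 of them with the hexamer, against 46.2% of all optimal summits. By role, a summit was held by 4 of 5 nuclear factor genes, 5 of 8 antagonist genes, 5 of 12 genes of adaptors and the kinase cascade, and 1 of 6 genes for other ligands and their processing. The strongest peak belonged to edl (2R, 18673362 to 18673688; signal 589; pooled rank 226; replicate ranks 207, 420 and 203), whose product is a small protein with a SAM domain that binds Yan and Pointed. Its summit was 9 bp from the TSS and had no hexamer. The peak came directly after the strongest peak of aop in the pooled list. It was followed by peaks assigned to the adaptor gene drk (rank 816, with the hexamer), Raf, the MAP kinase kinase kinase gene (8 summits; rank 876), Shc (rank 902), sty, the gene of the antagonist Sprouty (5 summits; rank 1148), and RasGAP1, a Ras inhibitor gene (rank 1540). The most summits of the 31 genes, 10, were at cic, the gene of the repressor Capicua (strongest at rank 1666), named after its values were seen. The drk and Shc summits lie nearest to the TSS of mars and Atat. No optimal summit lay at Cbl, Dsor1 or PTP-ER, among the 16 genes without one.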

How the data were processed

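The files are peak lists in narrowPeak layout. As the deposited descriptions of the files have it, each replicate list was made from its own alignments with a control, the pooled list from all 3, and the optimal list from these lists by irreproducible discovery rate. Fragments were sonicated to 200 to 800 bp, per the labels. The aligner and peak caller were not given in the sources used here. The control itself was not used. The deposited peak signal has no stated scale and was used only to rank peaks within a list, and the authors' −log10 q-value is capped at a maximum per list (4.21 in the pooled list). The deposited summit offset from the peak start placed each summit.

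Coordinates are dm6, counting from 1, with the Ensembl release 115 annotation, transposable elements left out, and RefSeq's release 6 genome for sequence. The 10 genes matched by symbol, as did the 31 further pathway genes. Members and lists were chosen with earlier results of these data known. All members are named, with the 6 further pathway genes of strongest peak and 3 with none, and peaks that are strongest in their gene or rank 1000 or better. Peaks were shared when overlapping by 1 bp, each matched to the strongest overlapping replicate peak. Motif windows ran 50 bp either side of the summit. Scripts ran in Python 3.11.15 with SciPy 1.17.1 and were tested on simulated data. Alternatives covered the threshold, the gene rule, windows, overlap and leaving out replicates. Lists on dm3 were not used. Intervals cover counting error only and treat summits as independent, although aop held 11 and pnt 9 of the 36, so they may be too narrow.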

Additional observations from a re-analysis of the deposited data

How the results depend on the processing

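No paired analysis was possible because the series has 1 group, so no replicate numbers are shared between groups. The paired comparisons reported are within replicates. The number of genes with an optimal summit stayed between 8 and 10 in every alternative tried. The 36 summits became 17 with the 3290 optimal peaks of highest signal and 165 with the whole pooled list, which hold fewer and more peaks by construction. The share of these peaks among the strongest of all replicates (66.7%) became 94.1% with those 3290 peaks. It became 41.7% where peaks had to overlap by 50% of each, 97.2% with 13160 peaks per replicate, and 69.4% to 80.6% when 1 replicate was left out. Longer replicate lists or fewer replicates can only keep or raise this share, and a stricter overlap can only keep or lower it. The mean count per replicate (41.3) became 18.7 and 76.3 with 3290 and 13160 peaks, again fewer and more by construction. The share with the hexamer ran from 24.8% (whole pooled list) to 52.8% (100 bp either side of the summit), and was 28% without aop, an alternative chosen after seeing the data. A wider window can only keep or raise the share with the hexamer. The 46.2% of all optimal summits was measured within 50 bp, so the 52.8% cannot be set beside it. With each summit given to the protein-coding gene of the nearest TSS, Krn lost its peak to Ndfip, whose start is the same base; ru held none with the 3290 strongest peaks. Depth is unknown, which limits what the absence at rho can show.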
